A study of Danio rerio with 9 samples.

Results

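The 10 Smad genes of the deposited table were smad1, smad2, smad3a, smad3b, smad4a, smad5, smad6a, smad6b, smad7 and smad9, out of 21692 genes in all. They were taken by gene symbol, whatever their values. RNA was sequenced from atrioventricular valve tissue of zebrafish (Danio rerio) hearts, taken from cryosections by laser capture microdissection, which uses a laser to collect a selected piece of a section. The 3 groups had 3 libraries each: uninjured fish, fish 48 h after ablation of valve cells and fish 21 d after it. For ablation, fish were kept for 6 h with metronidazole at 2.5 mM, a compound that becomes toxic in cells with a bacterial nitroreductase. Each library came from material labelled as 2 hearts. The labels give no age, strain, transgene or driving promoter, and do not say whether the uninjured fish received the drug. Nor do they state that replicate libraries are from different fish, and p-values here cover only the library-to-library spread, which may be technical.

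Smad proteins carry signals of the transforming growth factor beta (TGF-beta) family from the cell surface to the nucleus. Ligand-bound receptor kinases phosphorylate receptor-regulated Smads, which join the common partner Smad4 and regulate transcription. TGF-beta and activin receptors act mainly through Smad2 and Smad3, and bone morphogenetic protein (BMP) receptors through Smad1, Smad5 and Smad9. Smad6 and Smad7 are inhibitors, are often induced by the pathway itself, and close a negative feedback loop. In the embryonic heart, both branches act in the formation of the endocardial cushions from which valves grow. Zebrafish hold several Smad genes as a pair of copies, here smad3a with smad3b and smad6a with smad6b. These libraries measured RNA only, and phosphorylation of Smad proteins was not measured.

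The values are normalised read counts, read counts per gene divided by a size factor for each library. Column totals of the normalised counts ran from 15383031 to 21616553, with the 3 libraries at 48 h at the low end, and the size factors estimated from the spacing of low values ran from 0.8512 to 1.398. The lowest value of a Smad gene in any library was 104, for smad4a, which stood for about 104 reads. All 10 Smad genes passed the filter on low values. Summed values of 12 valve interstitial markers took 0.91% to 1.09% of uninjured columns, 0.384% to 0.529% at 48 h and 0.779% to 0.887% at 21 d. The captured tissue also held heart muscle: its 11 markers summed to 4.48% to 5.35% of uninjured columns, 2.98% to 3.78% of those at 48 h and 4.42% to 5.31% of those at 21 d. Fewer cells of a type and less RNA per cell cannot be told apart in such bulk tissue. No marker list had a member at 0 in all libraries.

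At 48 h against uninjured tissue, smad1 rose and smad3b fell, and the other 8 Smad genes did not pass the test. In limma over 17891 tested genes (Benjamini-Hochberg adjusted p under 0.05), 10.8% of all genes passed in this comparison, 4.44% higher and 6.33% lower, so 2 of 10 is not a share that stands out. At 21 d against uninjured tissue 0 of 10 Smad genes passed, where 1.45% of all genes did (0.52% higher, 0.933% lower). Between 48 h and 21 d, smad1 fell and smad3b rose, 2 of 10 against 9.88% of all genes, 5.48% higher and 4.4% lower. An unadjusted p under 0.05 was found in limma for 6 of 10 Smad genes at 48 h against uninjured tissue, beside 23.2% of all genes. At 21 d it was found for 1 of 10, smad9, beside 11.9%, and between 48 h and 21 d for 4 of 10, beside 22.3%. Groups did not overlap at 48 h against uninjured tissue for 1 Smad gene higher and 4 lower, beside 27.2% of all genes (13.6% in each direction). At 21 d against uninjured tissue this held for 1 Smad gene, lower, beside 17.9% of all genes (8.44% higher, 9.46% lower). Between 48 h and 21 d it held for 1 higher and 2 lower, beside 27.3% of all genes (13.6% higher, 13.7% lower). All 3 comparisons share libraries, so the values at 48 h enter both of those with calls. The median log2 fold change of the 10 genes was -0.35 at 48 h and -0.13 at 21 d, both against uninjured tissue, and 0.12 between 48 h and 21 d. Over all tested genes these medians were 0.01, 0.02 and 0.00428. Over all genes, 794 rose and 1133 fell at 48 h. With columns rescaled to equal totals this split was 1345 and 652, because that scaling moved the median of all genes to 0.28. From 48 h to 21 d the split was 980 higher and 788 lower, and with equal totals 607 and 1281, around a median of -0.23.

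**Figure D1:**
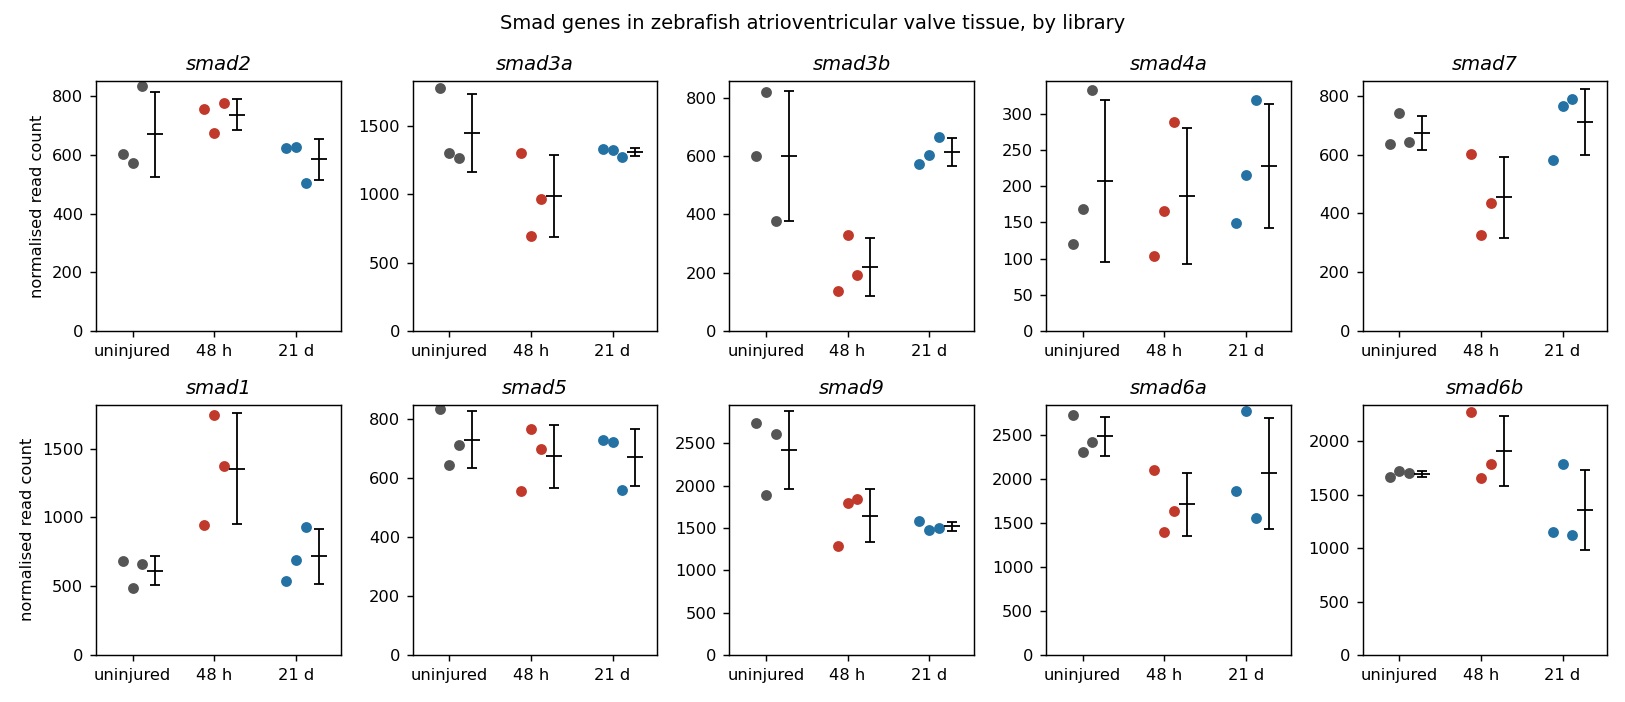
Normalised read count (vertical axes, linear from 0, each gene on its own scale) of the 10 Smad genes in the uninjured, 48 h and 21 d groups; each point is 1 library, and the bars beside them are the mean and SD of 3 libraries. The 3 libraries at 48 h lay above all others for smad1 (942 to 1745) and below all others for smad3b (137 to 329). Of all genes, 13.6% had 48 h values wholly above the uninjured ones and 13.6% wholly below.

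Among receptor-regulated Smads of the BMP branch, smad1 (ENSDARG00000027199) was the only gene that passed the test. Its normalised counts were 682, 490 and 663 in the uninjured libraries, 942, 1745 and 1375 at 48 h, and 535, 689 and 930 at 21 d. Every library at 48 h was above every other library, while the 21 d values overlapped the uninjured ones. Of all genes, 13.6% had 48 h values wholly above the uninjured ones, and 13.7% had 21 d values wholly below those at 48 h. The mean rose from 612 ± 106 to 1354 ± 402 at 48 h (SD, n = 3), 2.17-fold (log2 fold change 1.12, SE 0.28, limma adjusted p = 0.01). It was 718 ± 199 at 21 d, which was lower than at 48 h by 1.87-fold (log2 fold change -0.91, SE 0.28, limma adjusted p = 0.0406). Between 21 d and uninjured tissue the log2 fold change was 0.21, with a 95% interval of -0.37 to 0.79 that did not exclude a 1.73-fold higher level.

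The rise of smad1 at 48 h rested on few libraries for its call. Its adjusted p was 0.0596 without uninjured library 2 and 0.0727 without 48 h library 2, the library with its highest value, and the log2 fold change stayed between 0.91 and 1.36 whichever library was left out. The later fall from 48 h to 21 d lost its call without 48 h library 2 (adjusted p = 0.198), 48 h library 3 (0.113), 21 d library 1 (0.191), 21 d library 2 (0.108) or uninjured library 3 (0.051). With columns rescaled to equal totals, smad1 kept both calls (adjusted p = 0.00198 and 0.0095), and its change at 48 h was 1.12 relative to the shifted median of all genes.

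Markers of immune and dividing cells and some endothelial markers were higher at 48 h, as smad1 was. Of all genes, 4.44% were called higher at 48 h and 6.33% lower. Of 10 macrophage markers 9 rose and 0 fell, and their summed values were 2165 to 2688 in the uninjured group, 9674 to 16756 at 48 h and 3688 to 5117 at 21 d. Of 9 markers of dividing cells 8 rose, from sums of 1780 to 2910 to sums of 7755 to 13434, and back to 2319 to 3231 at 21 d. Of 7 neutrophil markers 2 rose (5 with equal column totals), with sums of 3001 to 5620 before and 7172 to 7951 at 48 h. Of 13 endothelial and valve endothelial markers 2 rose and 2 fell at 48 h (median 0.40), and with equal column totals 5 rose and 1 fell. Their sums were 37575 to 44913, then 37702 to 59034 at 48 h and 38376 to 40140 at 21 d. The endothelial transcription factor fli1a rose 1.76-fold and the receptor tie1 1.91-fold at 48 h (limma adjusted p = 0.00636 and 0.0184), and both were lower again at 21 d than at 48 h (0.00432 and 0.00211). At 48 h the fli1a call was lost without uninjured library 2 (0.0528), and that of tie1 without uninjured library 2 (0.0909) or 3 (0.0718) or 48 h library 1 (0.0967). The endothelial genes vwf and klf2a fell at 48 h, by 0.98 and 0.76 on the log2 scale (limma adjusted p = 0.000474 and 0.00631). The klf2a call was lost in 2 of 19 settings, among them equal totals (0.121). In 48 h library 1, which had the lowest smad1 value of that group (942), the macrophage sum was 16756, the dividing-cell sum 13434 and the endothelial sum 59034, each the highest of the 3. In 48 h library 2, with the highest smad1 value (1745), the first 2 sums were the lowest of the 3 (9674 and 7755), and the endothelial sum was 39021. The neutrophil sums went the other way, with 7172 in library 1, the lowest of the 3, and 7951 in library 2, the highest. The part of these cell types in the rise of smad1 was not tested.

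The other Smads of the BMP branch did not follow smad1. For smad9 (ENSDARG00000021938), the third gene of this class, the counts were 2742, 1889 and 2613 in uninjured tissue, 1281, 1796 and 1846 at 48 h, and 1582, 1479 and 1495 at 21 d. All 6 libraries after ablation lay below all uninjured libraries. The means were 2415 ± 460, 1641 ± 313 and 1519 ± 55.4 (SD, n = 3). Neither difference from uninjured tissue passed the test, with log2 fold changes of -0.56 at 48 h (SE 0.22, limma adjusted p = 0.107) and -0.65 at 21 d (SE 0.22, limma adjusted p = 0.17). As folds, the 95% intervals were 0.499 to 0.926 and 0.467 to 0.869 of the uninjured level before adjustment over all genes. The 21 d and 48 h groups overlapped. Groups that did not overlap in this direction were found for 13.6% of all genes at 48 h and 9.46% at 21 d.

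For smad5 (ENSDARG00000037238), whose early role in dorsoventral patterning of the zebrafish embryo is well known, all 3 groups overlapped. The counts were 645 to 835 in the uninjured group, 555 to 765 at 48 h and 560 to 729 at 21 d. The log2 fold changes against uninjured tissue were -0.12 and -0.13, and as folds the 95% intervals were 0.631 to 1.34 and 0.629 to 1.33 of the uninjured level. The 2 values at 48 h and 21 d, 673 ± 107 and 671 ± 95.9, were the closest pair of group means of any Smad gene.

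Within this class the balance moved toward smad1, a comparison chosen after the values were seen and given without a test. As a share of the summed normalised counts of smad1, smad5 and smad9, which does not depend on how libraries were scaled, smad1 took 16%, 16.2% and 16.6% in uninjured tissue. It took 33.9%, 40.5% and 35.1% at 48 h, and 18.8%, 23.8% and 31.2% at 21 d. These are shares of reads, not corrected for gene length, so they compare libraries and not the abundance of the 3 genes. No library of either group after ablation reached down to the uninjured shares, and the groups at 48 h and 21 d did not overlap. How often shares in other sets of genes separate in this way was not computed. The share of smad9 went from 64.1% ± 1.54 to 45% ± 2.86 and 52.3% ± 2.92 (SD, n = 3), and that of smad5 was 19.6% ± 1.74, 18.5% ± 1.25 and 23.1% ± 3.79. The summed counts of the class overlapped between uninjured tissue (3024 to 4259) and 48 h (2778 to 4306). At 21 d these sums were 2846 to 2985, all below the uninjured ones, as the values of 9.46% of all single genes were. The smad1 counts themselves did not pass at 21 d against uninjured tissue (limma adjusted p = 0.834), so the higher share there is not a shown rise of smad1.

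Among receptor-regulated Smads of the TGF-beta branch, smad3b (ENSDARG00000010207) fell at 48 h and was back in the uninjured range at 21 d. Its counts were 601, 821 and 376 in uninjured tissue, 137, 329 and 192 at 48 h, and 572, 603 and 665 at 21 d. The 48 h libraries lay below all others, although the highest of them (329) was near the lowest uninjured one (376). Of all genes, 13.6% had 48 h values wholly below the uninjured ones, and 13.6% had 21 d values wholly above those at 48 h. The mean went from 599 ± 222 to 219 ± 98.9 (SD, n = 3), a 2.77-fold lower level (log2 fold change -1.47, SE 0.36, limma adjusted p = 0.00806). From 48 h to 21 d it rose 2.97-fold to 613 ± 47.4 (log2 fold change 1.57, SE 0.36, limma adjusted p = 0.00523). Between 21 d and uninjured tissue the log2 fold change was 0.10, with a 95% interval of -0.64 to 0.84.

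The call of smad3b at 48 h was lost without uninjured library 2, its highest value (adjusted p = 0.0694), and held without any other library. The rise to 21 d held without each of the 9 libraries in turn (adjusted p from 0.00144 to 0.0296). With equal column totals both calls held (adjusted p = 0.0271 and 0.0143).

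Valve interstitial and heart muscle markers were, like smad3b, lower at 48 h and higher again at 21 d, and smooth muscle markers were lower at 48 h. Of all genes, 6.33% were called lower at 48 h than in uninjured tissue, and 5.48% higher at 21 d than at 48 h. At 48 h, 10 of 12 interstitial markers fell and 0 rose, with summed values of 176733 to 222179 in the uninjured group, 69125 to 84620 at 48 h and 151626 to 173490 at 21 d. Of 5 smooth muscle markers 3 fell, with sums of 10182 to 15107, 3544 to 8051 and 4133 to 7293 in the same order. Among these, elnb is also an interstitial marker, so the 2 lists are not separate for it. Its means were 2922, 77 and 484 in the same order. Heart muscle markers fell in 7 of 11, and with equal totals 4 fell and 1 rose, with sums of 877509 to 1039550, 457742 to 604311 and 865367 to 1036394. At 21 d against 48 h, 8 of 12 interstitial markers rose and 0 fell, and 7 of 11 heart muscle markers rose and 1 fell. Red-cell markers fell in 1 and rose in 1 of 9 at 48 h (median log2 fold change -1.15), and 1 rose and 0 fell from 48 h to 21 d (median 1.57). Their sums were 683553 to 1623386 in uninjured tissue, 295127 to 760665 at 48 h and 1082065 to 1551523 at 21 d. The 21 d sums lay above all those at 48 h, which overlapped the uninjured ones. Within the 48 h group the red-cell sum was highest in library 2 (760665) and lowest in library 3 (295127). Within the 48 h group, smad3b was lowest in library 1 (137), which had the highest interstitial sum (84620) and the lowest smooth muscle sum (3544). It was highest in library 2 (329), which had the lowest interstitial sum (69125) and the highest smooth muscle sum (8051). At 21 d, smooth muscle and interstitial sums were all below the uninjured ones. Passing as lower than in uninjured tissue were 1 of the 5 smooth muscle markers, elnb, and 4 of the 12 interstitial markers (median log2 fold change -0.78), beside 0.933% of all genes. Of the 11 heart muscle markers 0 passed in that comparison. The smad3b counts at 21 d lay within their uninjured range. The part of these cell types in the fall of smad3b was not tested.

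Of the Smad genes, smad3b varied most between the 3 groups (moderated F-test in limma, adjusted p = 0.00483). Among the genes whose log2 values followed smad3b most closely over the 9 libraries were klf17, slc16a10, tapt1a and stam, with Pearson r from 0.964 to 0.972. These are a Krüppel-like transcription factor, an aromatic amino acid transporter, a membrane protein and an endosomal sorting adaptor. The 9 points share the 3 groups, so r is given as a description with no p. For klf17 the mean was 3569 ± 1738 in the uninjured group, 971 ± 540 at 48 h and 3182 ± 797 at 21 d (SD, n = 3). No other Smad gene was among them. By the same measure smad7 had r of 0.54 with smad3b, and its copy smad3a had 0.40. Negative values were found for smad2 (-0.77), smad1 (-0.62) and smad6b (-0.61), and the remaining Smad genes had 0.14 to 0.29.

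The paralog smad3a (ENSDARG00000036096) had counts of 1775, 1302 and 1263 in uninjured tissue, 1300, 698 and 966 at 48 h, and 1331, 1326 and 1274 at 21 d. One 48 h library (1300) reached into the uninjured range, and the 21 d libraries were within it. The log2 fold change at 48 h was -0.58 (SE 0.24, limma adjusted p = 0.144), with a 95% interval of -1.08 to -0.07 before adjustment. It was -0.35 without 48 h library 2 (limma adjusted p = 0.476), -0.42 without uninjured library 1 (0.419), and -0.80 without 48 h library 1, where it passed (0.0443). At 21 d the log2 fold change from uninjured tissue was -0.13, with an interval of -0.63 to 0.38.

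A difference between the 2 copies in their change at 48 h was not shown. The smad3a to smad3b ratio of normalised counts was 2.95, 1.58 and 3.35 in uninjured libraries, 9.43, 2.12 and 5.01 at 48 h, and 2.33, 2.2 and 1.91 at 21 d. Library 2 at 48 h overlapped the uninjured libraries. On the log2 scale the mean ratio was 1.32 ± 0.58 in uninjured tissue and 2.21 ± 1.08 at 48 h (SD, n = 3; exact permutation test, two-sided, p = 0.3, adjusted p = 0.45 over the 3 comparisons). Leaving out 48 h library 1 lowered the difference of 0.89 to 0.38, and leaving out 48 h library 2 raised it to 1.46. The smallest p that 3 libraries against 3 allow is 0.1.

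For smad2 (ENSDARG00000006389), the other transducer of the TGF-beta branch, counts were 571 to 835 in the uninjured group, 676 to 777 at 48 h and 505 to 628 at 21 d. The 48 h and 21 d libraries did not overlap, as in 13.7% of all genes in that direction, but the log2 fold change between them was -0.34 and did not pass (limma adjusted p = 0.499). At 48 h against uninjured tissue it was 0.15, with an interval of -0.39 to 0.70, so a fall of smad2 as large as that of smad3b lies outside its interval. The share of smad2 in the summed counts of smad2, smad3a and smad3b was 20.3% to 33.8% in uninjured tissue, 34.5% to 40.2% at 48 h and 20.7% to 24.7% at 21 d.

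**Figure D2:**
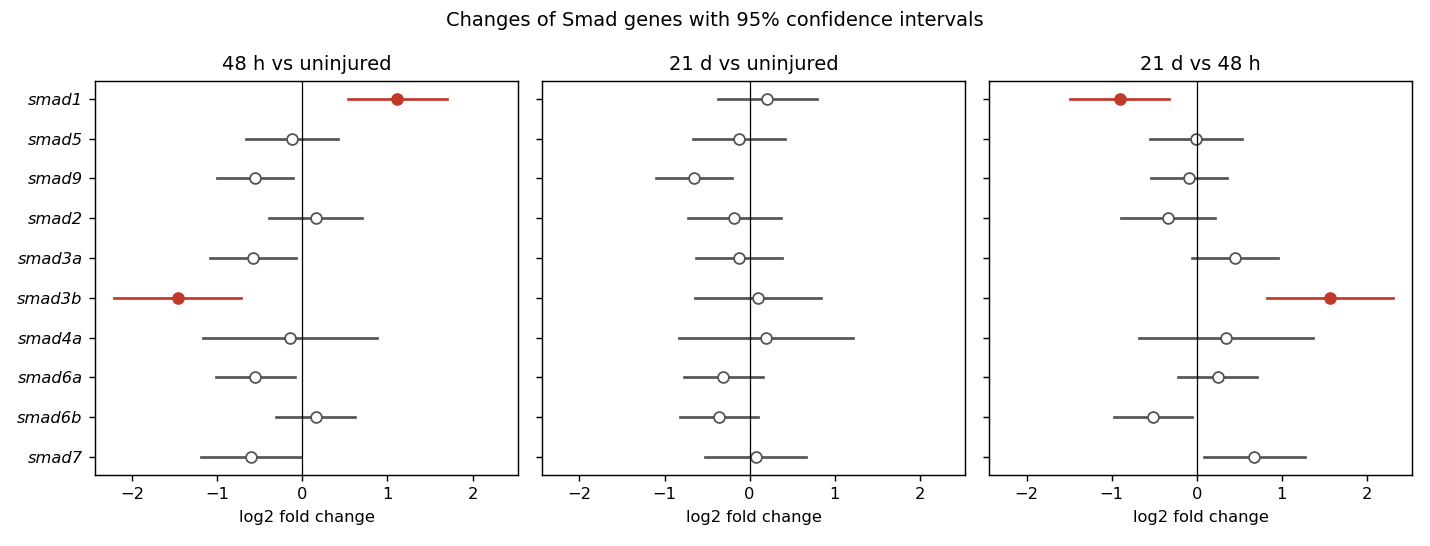
Log2 fold change (horizontal axes) of each Smad gene in the 3 comparisons, from limma on 9 libraries; lines are 95% intervals before adjustment, and filled red points passed at adjusted p under 0.05. At 48 h against uninjured tissue smad1 (1.12) and smad3b (-1.47) stand on opposite sides of 0, between 48 h and 21 d both have the opposite sign (-0.91 and 1.57), and at 21 d against uninjured tissue 0 genes passed.

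The common partner smad4a (ENSDARG00000075226) had the widest spread within groups of any Smad gene. Its counts were 120, 169 and 333 in uninjured tissue, 104, 166 and 288 at 48 h, and 149, 215 and 319 at 21 d. The 3 groups covered the same range, and within each group the highest library was 2.14 to 2.78 times the lowest. The log2 fold change was -0.15 at 48 h and 0.20 at 21 d against uninjured tissue (SE 0.49 for both), with fold intervals of 0.445 to 1.84 and 0.565 to 2.33 of the uninjured level. Changes of smad4a as large as the ends of these intervals are not excluded by these libraries. In each of the 3 groups, library 1 had the lowest and library 3 the highest smad4a count. With the replicate number as a block its adjusted p was 0.885, 0.901 and 0.692 in the 3 comparisons.

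The inhibitory Smads did not pass the test in any comparison. Their means at 48 h were below the uninjured ones for smad7 and smad6a and above for smad6b. For smad7 (ENSDARG00000016858), which blocks receptor-regulated Smads of both branches, the counts were 636, 740 and 642 in uninjured tissue, 601, 327 and 435 at 48 h, and 583, 764 and 789 at 21 d. All 48 h libraries were below all uninjured libraries, as in 13.6% of all genes, and 1 of the 21 d libraries (583) lay below the highest 48 h library (601). The log2 fold change at 48 h was -0.61 (SE 0.29, limma adjusted p = 0.204) and that from 48 h to 21 d 0.68 (SE 0.29, limma adjusted p = 0.152). Relative to uninjured tissue it was 0.07 at 21 d, with an interval of -0.52 to 0.67.

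Smad6 proteins act mainly against the BMP branch. For smad6a (ENSDARG00000053209) the counts were 2730, 2305 and 2422 in uninjured tissue, 2104, 1400 and 1634 at 48 h, and 1861, 2775 and 1558 at 21 d. The 48 h libraries lay below the uninjured ones, as in 13.6% of all genes, and the 21 d libraries spread over both ranges. The log2 fold change was -0.55 at 48 h (SE 0.23, limma adjusted p = 0.129) and -0.31 at 21 d (SE 0.23, limma adjusted p = 0.645). For its copy smad6b (ENSDARG00000031763) the counts were 1667, 1719 and 1709, then 2279, 1661 and 1787, then 1155, 1786 and 1122. The uninjured libraries fell within the range of the 48 h group, and 2 of the 3 libraries at 21 d were below all others. The log2 fold change was 0.16 at 48 h (SE 0.22, limma adjusted p = 0.742) and -0.52 from 48 h to 21 d (SE 0.22, limma adjusted p = 0.164). With equal column totals, a scaling that shifted the median of all genes downward in this comparison, the latter passed at -0.76 (limma adjusted p = 0.0371).

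The ratio of the 2 smad6 copies separated the 48 h group from both others. The smad6a to smad6b ratio of normalised counts was 1.64, 1.34 and 1.42 in uninjured libraries, 0.923, 0.843 and 0.914 at 48 h, and 1.61, 1.55 and 1.388 at 21 d. All 3 libraries at 48 h were below the other 6, with a spread within groups that was small beside the gap. The counts were not corrected for gene length, so a ratio above or below 1 does not show which copy was more abundant. How often other pairs of genes separate the groups in this way was not computed. On the log2 scale the mean ratio was 0.55 ± 0.15 without injury, -0.16 ± 0.07 at 48 h and 0.60 ± 0.11 at 21 d (SD, n = 3). The difference of -0.71 at 48 h had an exact permutation p of 0.1, two-sided, the smallest that 3 against 3 allow, and 0.15 after adjustment over the 3 comparisons. From 48 h to 21 d the difference was 0.76 with the same exact p of 0.1 (adjusted p = 0.15). For 21 d against uninjured tissue it was 0.05 (exact permutation p = 0.8). With 3 libraries against 3 this test could not pass, so unequal change of the 2 genes was described and not established. Nor does a ratio within a library show which of the 2 genes changed.

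**Figure D3:**
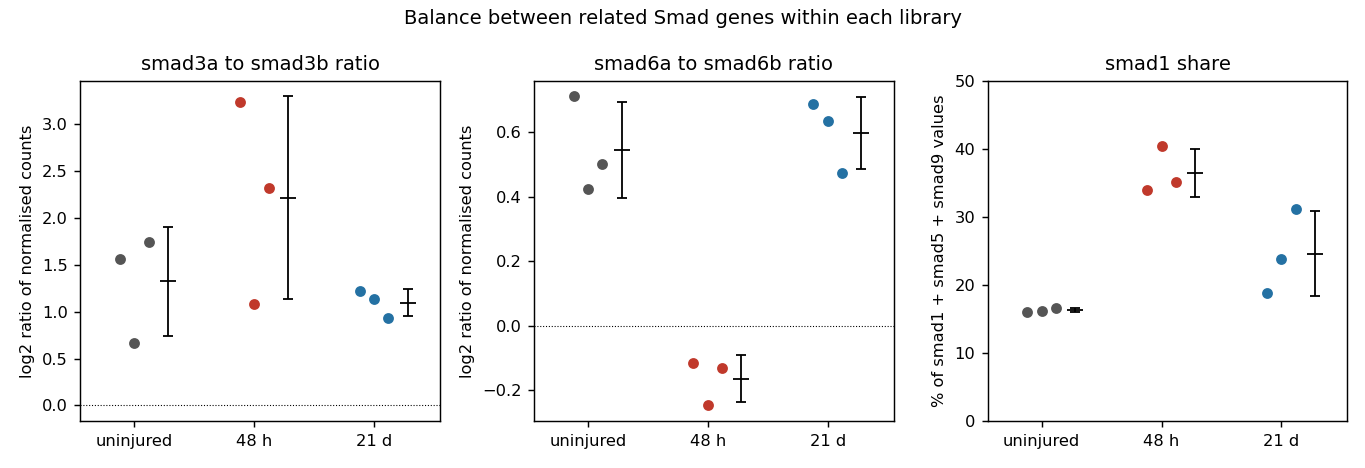
Balance between related Smad genes in each library by group: log2 ratio of normalised counts of smad3a to smad3b and of smad6a to smad6b, and smad1 as a percentage of the summed counts of smad1, smad5 and smad9; points are libraries, bars the mean and SD of 3. The smad6a to smad6b log2 ratio is lower in all 3 libraries at 48 h than in the other 6, and the smad1 share is 33.9% to 40.5% at 48 h against 16% to 16.6% in uninjured tissue. Counts are not corrected for gene length, so a log2 ratio of 0 does not mark equal abundance. The smad1 share was chosen after the values were seen and was not tested.

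The smad3 and smad6 copies are neighbours in the genome. In the RefSeq gene table of the assembly GRCz12tu, smad3a lies next to smad6a and smad3b next to smad6b, with no annotated gene between them. At 48 h smad3b had 0.361 of its uninjured level (95% interval before adjustment 0.216 to 0.604) and smad6b 1.11 times its own (0.809 to 1.53). A difference between these neighbours in their change was not tested. The call of smad3b was lost without uninjured library 2 (limma adjusted p = 0.0694), and smad6b did not pass. In the a pair the same fold was 0.67 (0.472 to 0.951) for smad3a and 0.681 (0.492 to 0.942) for smad6a, also before adjustment. Neither gene of the a pair passed the test (limma adjusted p = 0.144 and 0.129). Reads of such copies can be shared between them, and how the authors' counting treated reads that match both copies is not given in the sources used here.

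The order of the 3 group means differed from gene to gene. The 48 h mean was the highest for smad1, smad2 and smad6b and the lowest for smad3a, smad3b, smad4a, smad6a and smad7. The 21 d mean was the lowest for smad2, smad5, smad6b and smad9, and the uninjured mean for smad1. For the 8 genes other than smad1 and smad3b, no pair of groups passed the test. For smad1 the uninjured and 21 d levels were not distinguished from each other, and for smad3b likewise.

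Other genes of the pathway were described from lists chosen with earlier results of these data known, without the Smad genes themselves. Receptors of the TGF-beta family rose in 2 and fell in 1 of 18 tested genes at 48 h, where 10.8% of all genes passed. The median log2 fold change was 0.07 against 0.01 for all genes, and with equal column totals 3 rose and 0 fell. The activin type I receptor acvr1ba rose 2.11-fold, from 1517 ± 281 to 3197 ± 519 (limma adjusted p = 0.00135), and the BMP type I receptor bmpr1ab rose 1.85-fold, from 1126 ± 105 to 2083 ± 248 (SD, n = 3; limma adjusted p = 0.00973). Both calls held under all 19 alternative settings. The activin type II receptor acvr2aa fell by 0.72 on the log2 scale (limma adjusted p = 0.0462), a call lost with equal totals (adjusted p = 0.246) and in 11 other settings, among them leaving out any uninjured library (0.0749 to 0.132), 48 h library 1 (0.112) or 3 (0.161) or 21 d library 1 (0.059) or 3 (0.0556). At 21 d, 0 of 18 receptors passed against uninjured tissue, beside 1.45% of all genes. Against 48 h, 3 were lower at 21 d, beside 4.4% of all genes. Of these, bmpr1ab was 2.33-fold lower (limma adjusted p = 0.000559) under every setting. The lower level of acvr1ba (-0.76, limma adjusted p = 0.0234) lost its call without 48 h library 1 (0.0892) or 21 d library 1 (0.119) or 3 (0.0895). That of the type II receptor tgfbr2a (2.63-fold, limma adjusted p = 0.0372) lost its call in 5 of 19 settings. Among these were leaving out 48 h library 1 (0.123) or 3 (0.136) or 21 d library 1 (0.176) or 2 (0.13).

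Enzymes and cofactors that act on Smad proteins are read here beside the 10.8% of all genes that passed at 48 h. Ubiquitin ligases and deubiquitinases fell in 2 of 15 (median -0.27), and with equal column totals in 1 (median 0.01). The ligase wwp2 went from 8338 ± 1807 to 2862 ± 707 (SD, n = 3; log2 fold change -1.55, limma adjusted p = 8.3e-06) and rose to 4971 ± 188 at 21 d (limma adjusted p = 0.00852, and 0.069 with equal totals). The chaperone-linked ligase stub1 fell by 0.92 (limma adjusted p = 0.0279), a call lost with equal totals (0.142), on leaving out uninjured library 2 (0.114) or 3 (0.0664), or 48 h library 2 (0.0865) or 3 (0.0809). Corepressors and coactivators fell in 2 of 19 (median -0.30), and with equal totals 1 rose and 1 fell (median -0.03). The transcription factor foxo1a, which can bind Smad3 and Smad4 in mammals, had a log2 fold change of -1.68 at 48 h and of -1.31 at 21 d, both against uninjured tissue (limma adjusted p = 5.7e-06 and 0.0012). The acetyltransferase crebbpb fell by 0.82 (limma adjusted p = 0.00938), a call lost with equal totals (0.107) and without uninjured library 3 (0.0521). Between 48 h and 21 d the corepressors skila and skilb rose 2.92-fold and 3.02-fold (limma adjusted p = 0.0155 and 0.0119). Their calls were lost without 21 d library 3 (0.0767 and 0.0602), that of skilb also without 21 d library 1 (0.0839) and that of skila without 48 h library 2 (0.0596). The blood-cell transcription factor runx1 was at 83 ± 63.9 at 48 h and 447 ± 96.3 at 21 d (SD, n = 3; limma adjusted p = 0.00499). Like skila and skilb, runx1 did not pass against uninjured tissue at 48 h or at 21 d.

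Anchors, phosphatases and membrane regulators fell in 4 and rose in 1 of 19 at 48 h (median -0.46), and in 1 and 1 with equal totals. The phosphatase subunit ppp1r15a, which in mammals can bring a phosphatase to type I receptors, went from 6206 ± 1657 to 1382 ± 153 (SD, n = 3; log2 fold change -2.14, limma adjusted p = 6.7e-08). The immunophilin fkbp1aa, which binds type I receptors and keeps them inactive, rose 2.02-fold (limma adjusted p = 0.00137) and was 2.09-fold lower again at 21 d (limma adjusted p = 0.000881). The decoy receptor bambia fell by 0.66 and the phosphatase ctdspla by 1.01 (limma adjusted p = 0.031 and 0.039), and both calls were lost with equal totals (0.278 and 0.173). The bambia call was lost in 7 of 19 settings, among them leaving out uninjured library 1 (0.072) or 3 (0.132) or 48 h library 1 (0.0565) or 2 (0.0918). The ctdspla call was also lost in 7 of 19, among them leaving out uninjured library 1 (0.233) or 3 (0.0869), 48 h library 2 (0.171) or 3 (0.0707) or 21 d library 1 (0.0504). Of 8 nuclear transport genes 1 rose, the importin kpnb1, by 0.61 (limma adjusted p = 0.0437). This call was lost in 7 of 19 settings, among them leaving out uninjured library 1 (0.171) or 3 (0.1) or any 48 h library (0.0591 to 0.147) or 21 d library 3 (0.058). At 21 d against 48 h, ppp1r15a was 2.96-fold higher (limma adjusted p = 9e-06), kpnb1 1.61-fold lower (0.0235, and 0.0629 to 0.145 without 48 h library 2 or 21 d library 1 or 3) and bambia 1.54-fold higher (0.0472, lost in 14 of 19 settings, among them leaving out any library, 0.0506 to 0.127).

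At 21 d, where 1.45% of all genes passed against uninjured tissue, the counts of regulators that passed were 0 of 15 ubiquitin enzymes, 1 of 19 cofactors (foxo1a, lower), 0 of 19 anchors and phosphatases and 0 of 8 transport genes, with median log2 fold changes of -0.14, -0.06, -0.05 and -0.14. Receptors had a median of -0.34, TGF-beta responsive genes of -0.39 and BMP responsive genes of -0.26. Relative to 48 h, 1 ubiquitin enzyme, 3 cofactors and 2 anchors or phosphatases were higher, and 1 anchor and 1 transport gene lower, beside 5.48% of all genes higher and 4.4% lower. These medians were 0.32, 0.25, 0.21 and -0.19, and with equal column totals 0.07, -0.0028, -0.04 and -0.44. For receptors, TGF-beta responsive and BMP responsive genes the medians against 48 h were -0.05, -0.03 and -0.29.

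Genes that respond to TGF-beta went both ways at 48 h, with 5 higher and 9 lower of 25 (median -0.61), beside 4.44% higher and 6.33% lower of all genes. These counts hold for the scaling of the deposited values, and equal column totals moved the median of all genes at 48 h to 0.28. The collagen genes col1a1b and col1a2 were 2.83-fold and 2.58-fold lower and the matricellular gene postnb 5.41-fold lower, while the fibronectin gene fn1b rose 2.2-fold (limma adjusted p = 7.4e-08, 7.5e-07, 1.4e-07 and 6.1e-06). The collagens and postnb are also interstitial markers, so they are not separate evidence from the marker counts. At 21 d, 2 of the 25 were below uninjured levels, beside 0.933% of all genes. These were the lysyl oxidase loxa (1735 ± 176 and 333 ± 80.5) and the growth factor gene ctgfb (893 ± 113 and 219 ± 57.1; SD, n = 3; limma adjusted p = 7.0e-05 and 0.00188). At 21 d against 48 h, 8 rose and 7 fell, beside 5.48% higher and 4.4% lower of all genes. Here fn1b and fn1a were 3.12-fold and 2.98-fold lower and postnb and col1a1b 4.66-fold and 2.38-fold higher.

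Genes that respond to BMP rose in 1 and fell in 1 of 12 at 48 h (median 0.26), where 10.8% of all genes passed. The fall was that of bambia, which stands in both lists. The Id gene id2b, which encodes a dominant-negative partner of helix-loop-helix factors, rose 1.67-fold from 2949 ± 707 to 4931 ± 1237 (SD, n = 3; limma adjusted p = 0.0304). That call was lost without uninjured library 2 (0.183) or 3 (0.0601) as well as 48 h library 1 (0.144) or 2 (0.0674). Against 48 h, 4 were lower at 21 d and 1 higher (with equal totals 5 and 0), beside 4.4% lower and 5.48% higher of all genes. The 4 were all Id genes. Of these, id2b and id2a were 2.9-fold and 2.12-fold lower (limma adjusted p = 4.1e-05 and 0.00268) and kept their calls under every setting. The lower level of id1 (-1.27, limma adjusted p = 0.0338) lost its call in 9 of 19 settings. Among these were leaving out uninjured library 1 (0.0523) or 2 (0.053), 48 h library 1 (0.108) or 2 (0.11) or 21 d library 1 (0.136) or 2 (0.0563). That of id4 (-2.76, limma adjusted p = 0.0351) lost its call in 6 of 19 settings. Among these were leaving out 48 h library 1 (0.0516), 2 (0.162) or 3 (0.0771) or 21 d library 1 (0.0631) or 3 (0.137). Against uninjured tissue, 0 of 12 passed at 21 d, beside 1.45% of all genes.

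**Figure D4:**
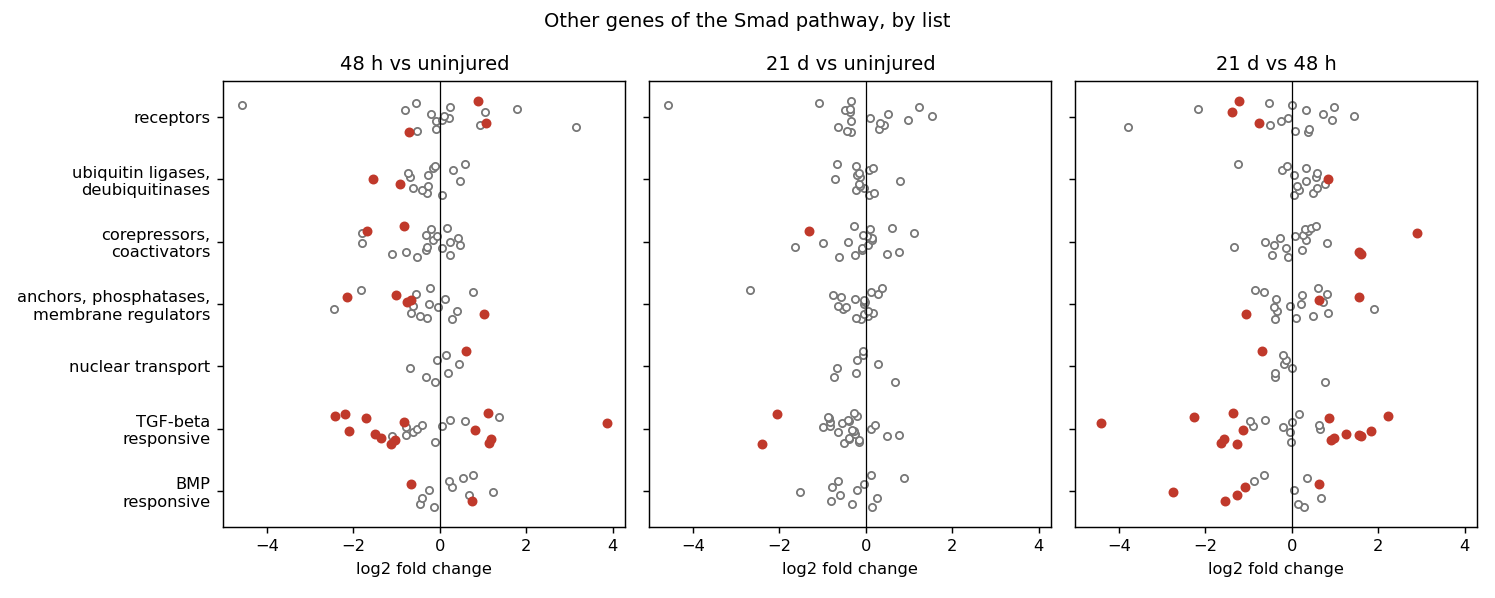
Log2 fold change (horizontal axes) of other genes of the Smad pathway in the 3 comparisons, 1 row per list; each point is 1 tested gene, filled red where it passed in limma at adjusted p under 0.05 and open where it did not. The TGF-beta responsive list has called genes on both sides of 0 at 48 h (5 higher, 9 lower), while at 21 d against uninjured tissue 3 genes are filled in all, foxo1a, loxa and ctgfb. Of all genes, 10.8% passed at 48 h and 1.45% at 21 d, both against uninjured tissue.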

How the data were processed

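The deposited values are a signal made by the authors, read counts per gene divided by a size factor for each library and rounded to whole numbers. Factors computed from the values by medians of ratios differed by at most 0.11%, so no count model was used. Per the submitters' processing notes, the tools were FastQC 0.11.8, Trimmomatic 0.33, STAR 2.6.0c, featureCounts 1.6.0 and DESeq2 1.18.1, with danRer11 (GRCz11). The estimate of size factors erred by at most 1.99% in 7 simulated cases, searched between 0.7 and 1.5.

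Genes reaching 10 in 3 or more libraries (17891) were tested with limma 3.58.1 under R 4.3.3, on log2(value + 1), with robust empirical Bayes moderation along an intensity trend, all 9 libraries, 6 residual degrees of freedom and two-sided p-values adjusted by Benjamini-Hochberg. Fold changes are on that scale. The fit was also run on simulated counts whose spread was set by hand and not estimated from these libraries. That run does not show how the fit behaves on the deposited values. Ratios were compared by exact permutation. All 10 Smad genes are named, the genes most correlated with smad3b (of the first 5, 1 is not reported here), and of each other list the genes with the smallest adjusted p-values (up to 4) among those that passed, not all of them given for every comparison. The members and lists were chosen with earlier results of these data known. No pairing of same-numbered libraries was seen over the genes as a whole, and the main fit used none. Figures used matplotlib 3.10.9.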

Additional observations from a re-analysis of the deposited data

How the results depend on the processing

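Of 570 values (10 Smad genes, 3 comparisons, 19 alternatives), 544 kept direction and side of the threshold, 8 lost a call and 2 gained one, as given with smad1, smad3b, smad3a and smad6b, and 16 changed sign without being called. With equal column totals these were smad4a (0.13) and smad5 (0.16) at 48 h and smad6a (-0.0024) from 48 h to 21 d. Relative to the median of all genes under that scaling, smad4a and smad5 were at -0.15 and -0.12 at 48 h. Leaving out 1 library in turn, log2 fold changes ranged at 48 h from -0.52 to 0.26 for smad4a and from -0.22 to 0.0104 for smad5. At 21 d against uninjured tissue they ranged from -0.21 to 0.0308 for smad3a, -0.20 to 0.36 for smad3b, -0.13 to 0.60 for smad4a and -0.0078 to 0.21 for smad7. From 48 h to 21 d they ranged from -0.0108 to 0.72 for smad4a, -0.14 to 0.12 for smad5 and -0.26 to 0.00113 for smad9. The smad6a to smad6b difference at 21 d ranged from -0.0082 to 0.14. The number of Smad genes called ranged from 0 to 3 at 48 h and from 1 to 2 between 48 h and 21 d. Over all genes, 260 calls at 21 d became 107 to 333, and 412 with the 2 groups alone, and 1768 between 48 h and 21 d became 1143 to 1807. The replicate block gave 1918, 239 and 1710 calls and the same number of Smad genes called (2, 0 and 2). Same-numbered libraries deviated together with r from -0.02 to 0.03 across genes, so no pairing by number was seen over the genes as a whole. A pairing that acts on few genes would not show in this measure. The fewest estimated reads behind a Smad value were 104, for smad4a, whose CV between libraries was 37.6% to 53.8%.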
